A study of Mus musculus with 6 samples.

Results

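The BMP signalling genes of brain endothelium described here are 10 genes picked by symbol: the Id genes Id1, Id2, Id3 and Id4, the inhibitory Smad genes Smad6 and Smad7, the receptor genes Acvrl1, Eng and Bmpr2, and the ligand gene Bmp6. Each symbol matched 1 Ensembl gene, so that they make up 10 of the 53465 genes in the count matrix, and 9 of them, all but Id4, were among the 13768 genes past the filter on low counts. They were chosen with the contrast of PTZ with PBS in view, so their differences in that contrast are given below as descriptions with no test of their own. The RNA came from brain endothelial cells of whole cortex, and the mice were males of 8 to 12 weeks. The labels call it total RNA and describe no collection of ribosomes, while the series title speaks of a translatome, so that a level here may be that of cell RNA or of ribosome-bound RNA. All mice, controls included, carried tie2-Cre, ai9 and rpl22HA/HA: a Cre driver active in endothelium and in part of the blood lineage, a fluorescent reporter switched on by Cre, and a tagged ribosomal protein by which ribosomes of Cre-bearing cells can be collected. One group had received phosphate buffered saline (PBS) and the other pentylenetetrazol (PTZ), a convulsant that blocks GABA-A receptors, with 3 libraries each, numbered 1, 2 and 4. How the cells were isolated, the dose and the delay until collection were not found in the labels. Nor do these say that each library came from its own animal, so that the spread between libraries, on which all p-values rest, may be technical.

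Bone morphogenetic proteins (BMPs) are secreted ligands that bring type I and type II receptors together. In endothelium the type I receptor ALK1 (gene Acvrl1), the type II receptor BMPR2 and the co-receptor endoglin (gene Eng) form the main high-affinity complex for circulating BMPs, and the active receptor phosphorylates Smad1, Smad5 and Smad9, which enter the nucleus with Smad4. The Id genes are among their best known direct targets. Id proteins carry a helix-loop-helix domain but no basic region, so that they pair with bHLH transcription factors and keep them off DNA, while Smad6 and Smad7 are induced by the same signal and inhibit it. Loss of ALK1 or endoglin causes hereditary haemorrhagic telangiectasia, a disease of malformed vessels.

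Id3 and Id2 were lower in PTZ, Id1 differed widely between the PTZ libraries, and the receptor genes stood at similar mean levels in both groups. Id3 was at 3000 ± 282 CPM (SD, n = 3) in PBS and 1483 ± 384 CPM in PTZ, a fold change of 0.494. CPM, the reads of a gene divided by the library's gene reads and scaled to the usual fixed total, were computed after TMM scaling of the library sizes. Bmp6 and Smad6, at much lower levels, had higher means in PTZ, with overlapping libraries. Of the 9 members past the filter 5 had a positive and 4 a negative log2 fold change, beside 52.7% positive among all genes tested, and their median was 0.014 against 0.034 for all genes.

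With edgeR's quasi-likelihood method, 0 of 13768 genes (0%) passed an adjusted p of 0.05, so no member did. At an unadjusted p under 0.05 stood 2 members, Id2 and Id3, both lower, beside 3.38% of all genes lower at that level (7.21% in either direction). The groups did not overlap for 1 member, Id3, lower in PTZ, beside 7.04% of all genes. DESeq2 called 1 member, Id3 (0.552% of genes called), limma-voom called 0 (0.00726% of genes), and DESeq2 with the replicate number as a block called Id2 and Id3 (1.5% of genes). Because this contrast was in view when the members were picked, nothing is read from these counts.

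**Figure D1:**
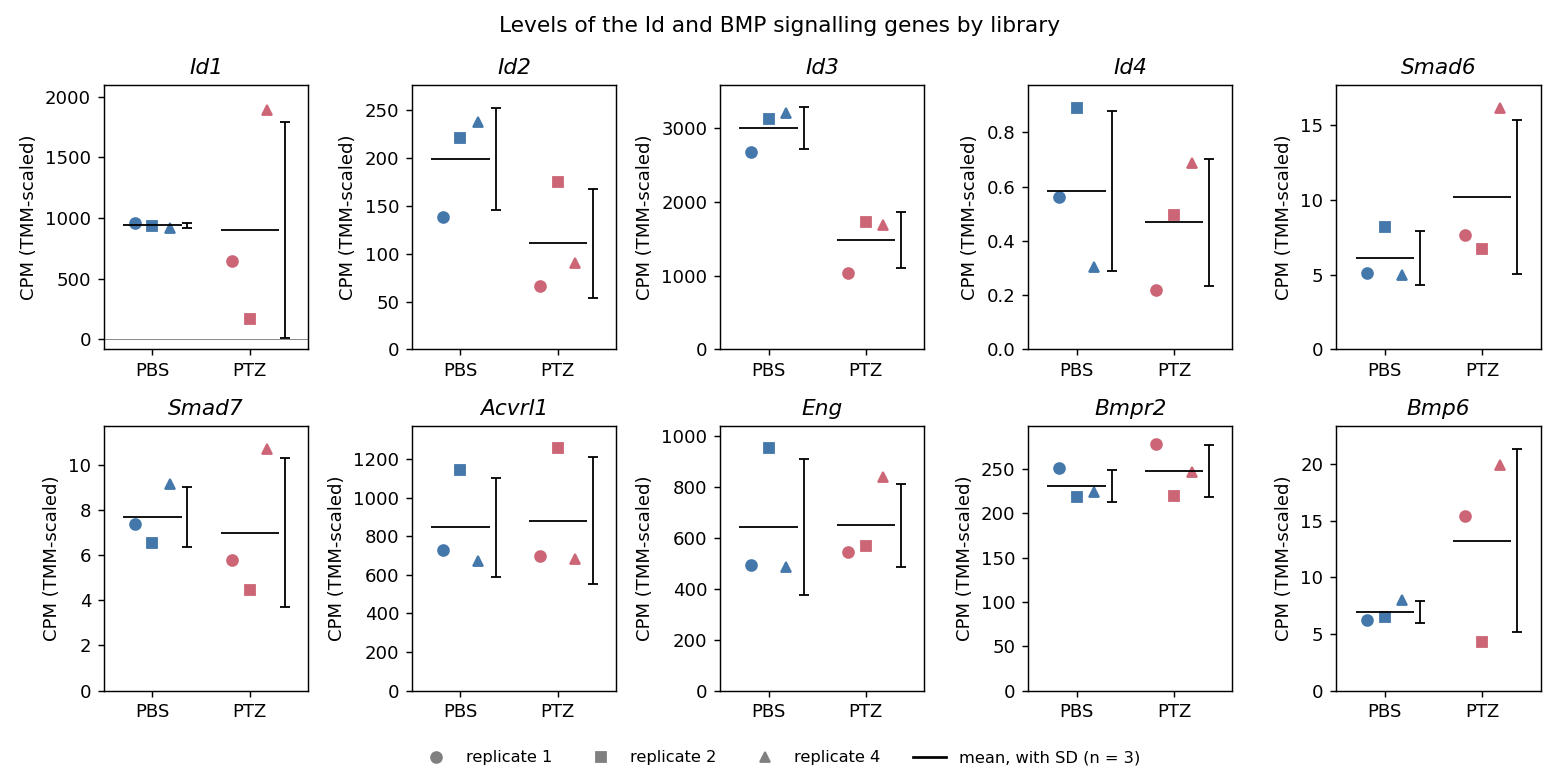
Level of each of the 10 genes in TMM-scaled CPM (vertical axis, starting at or below 0) in PBS and PTZ, 1 point per library with its replicate number as the shape, a line at the mean and a bar of 1 SD (n = 3). Id3 is the gene whose groups do not overlap, and Id1 runs from 168 to 1889 CPM in PTZ.

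Gene counts summed to 11107481 to 15406967 per library. The summed level of 8 endothelial markers was 9013 to 13094 CPM in PBS and 8779 to 15197 CPM in PTZ, against 15.1 to 80.1 CPM for 7 neuronal, 50.7 to 184 CPM for 7 astrocyte and 45.7 to 194 CPM for 6 oligodendrocyte markers over all libraries. Markers of pericytes and smooth muscle (12 genes) summed to 217, 323 and 590 CPM in PBS libraries 1, 2 and 4 and to 1176, 386 and 1082 CPM in PTZ, and 11 of 11 tested had a positive log2 fold change. Fibroblast markers (6 of 6 positive) summed to 81.7, 87.3 and 143 CPM and to 245, 84.0 and 261 CPM. Microglial markers (7 of 7 negative) summed to 1108, 864 and 1280 CPM and to 683, 639 and 1004 CPM. No marker of these lists was at 0 in all libraries. In PTZ library 1, 9.34% of all reads lay outside annotated features, against 2.99% to 5.19% in the others.

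**Figure D2:**
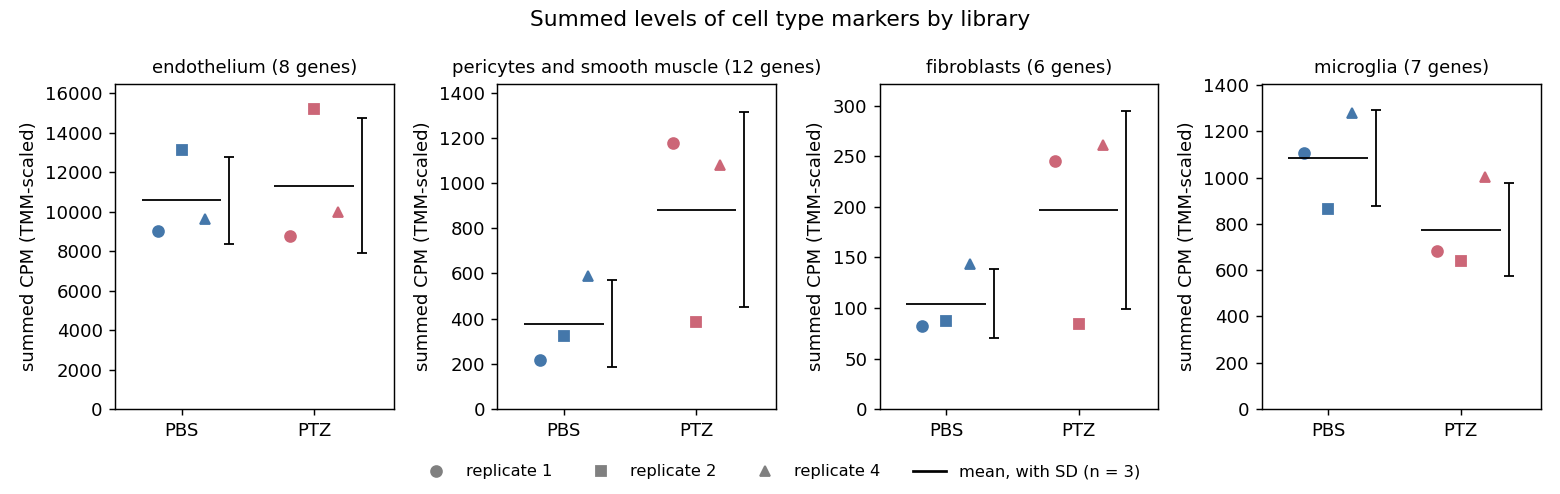
Summed CPM (vertical axis) of marker genes of 4 cell types in PBS and PTZ, 1 point per library, with the mean and 1 SD (n = 3). PTZ libraries 1 and 4 are high for pericyte, smooth muscle and fibroblast markers while PTZ library 2 is not, and the microglial sums of the groups overlap.

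The promoters of Id2 and Id3, the genes that were lower together, are shown with that of Bmp6, whose mean was higher in PTZ. Of the 10 genes 7 (Id2, Id3, Id4, Smad6, Eng, Bmpr2 and Bmp6) had an entry among RefSeq's promoters on build GRCm38.p6, while Id1, Smad7 and Acvrl1 had none. Each line gives the 250 bases before RefSeq's transcription start, 5′ to 3′ on the gene's own strand. Id2 is chr12:25096093-25096342 on the minus strand, Id3 chr4:136143572-136143821 and Bmp6 chr13:38345466-38345715, both on the plus strand. These windows lie inside the GENCODE gene spans given below, which begin further upstream, so that the positions hold for RefSeq's start alone. Capitals mark GGCGCC, a GC-rich motif bound by Smad1 and Smad5, and GTCT or its reverse complement AGAC, the Smad box.
Id2: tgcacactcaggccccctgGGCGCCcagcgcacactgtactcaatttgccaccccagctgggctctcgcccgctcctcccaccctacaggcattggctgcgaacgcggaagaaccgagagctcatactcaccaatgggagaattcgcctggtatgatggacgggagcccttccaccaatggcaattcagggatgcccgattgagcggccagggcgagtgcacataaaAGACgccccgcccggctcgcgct
Id3: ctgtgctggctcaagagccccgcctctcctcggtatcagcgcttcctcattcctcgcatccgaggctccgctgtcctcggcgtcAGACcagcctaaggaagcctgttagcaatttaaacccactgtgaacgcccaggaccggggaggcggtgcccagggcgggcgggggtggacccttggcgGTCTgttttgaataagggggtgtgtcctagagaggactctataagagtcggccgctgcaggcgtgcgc
Bmp6: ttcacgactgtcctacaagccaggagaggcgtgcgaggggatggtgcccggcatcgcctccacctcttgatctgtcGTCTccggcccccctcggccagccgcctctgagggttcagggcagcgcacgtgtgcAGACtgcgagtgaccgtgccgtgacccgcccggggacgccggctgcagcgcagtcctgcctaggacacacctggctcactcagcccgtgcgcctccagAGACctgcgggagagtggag

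Both strands were searched. GGCGCC, which is its own reverse complement, stood in the windows of 3 of the 7 genes (Id2, Id4 and Bmpr2) and in 9.59% of 32851 RefSeq promoter windows of the same length. In Id2 it began at position -231 from the start. GCCGNCGC was found in Id4 alone among the 7, and in 6.89% of all windows. The bases after RefSeq's start of Id4 were found in no GENCODE transcript of that gene, whereas those of the other genes were. The Smad box was found in 5 of the 7, Id2, Id3, Smad6, Eng and Bmp6, and in 82.9% of all windows. Its matches began at -23 in Id2, at -166 and -68 in Id3 and at -174, -118 and -20 in Bmp6. Neither the palindrome GTCTAGAC, which holds a Smad box on each strand (0.167% of all windows), nor GGCGCC followed after 5 bases by GTCT (0.07%), was found in the 7. The GC content of the windows was 62.8% in Id2, 62.8% in Id3 and 68.8% in Bmp6, within 62.4% to 75.6% for all 7, and the median over all windows was 52.4%.

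Id3 (ENSMUSG00000007872, a protein-coding gene on GRCm38 chromosome 4, 136143497 to 136145755, plus strand) is the Id gene with the highest mean RNA level here. It stood at 2678, 3123 and 3200 CPM in PBS libraries 1, 2 and 4 and at 1041, 1724 and 1686 CPM in PTZ libraries 1, 2 and 4. Every PTZ library thus lay below every PBS library. The log2 fold change was -1.02 (SE 0.31), and it lay between -1.17 and -0.81 under the 15 other settings tried. Between libraries of equal number the log2 difference was -1.36, -0.86 and -0.92. As a share of the summed endothelial markers Id3 was 28.9% ± 4.75 in PBS and 13.4% ± 3.09 in PTZ, again without overlap. The share of all genes without overlap on this scale was not computed, and Ly6c1 was the largest part of the sum. Microglial markers, given above, were also lower in PTZ, and their part in the Id3 difference was not tested. In bulk libraries, fewer cells of a type and less RNA per cell cannot be told apart.

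Id2 (ENSMUSG00000020644, protein coding, chromosome 12, 25093799 to 25097140, minus strand), which has broad roles in lymphoid and neural cells as well, stood at 138, 221 and 238 CPM in PBS and 66.6, 175 and 90.8 CPM in PTZ. PTZ libraries 1 and 4 lay below all PBS libraries, while PTZ library 2 lay within their range. The mean was 199 ± 53.4 CPM in PBS and 111 ± 56.9 CPM in PTZ, a log2 fold change of -0.85 (SE 0.36), which was -1.37 without PTZ replicate 2 and -0.58 without PTZ replicate 1. Id2 was lower in PTZ within all 3 equal numbers (-1.05, -0.34 and -1.39). Its share of the summed endothelial markers was 1.53%, 1.69% and 2.47% in PBS and 0.759%, 1.15% and 0.912% in PTZ. On this scale the groups did not overlap. The largest part of that sum was Ly6c1, at 8504 CPM in PTZ library 2. Within PTZ, Cldn5, Flt1 and Ly6c1 were highest in library 2, and Pecam1, Cdh5, Kdr, Tek and Slco1a4 in library 4. Whether the separation holds with other markers was not tested, and the share of all genes without overlap on this scale was not computed. Id2 and Id3 had the most similar profiles of any 2 members, with a root mean square difference of 0.32 in centred log2 CPM over the 6 libraries, where the 36 pairs ranged up to 1.37 (Id1 and Id2).

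Id1 (ENSMUSG00000042745, protein coding, chromosome 2, 152736251 to 152737410, plus strand) is the Id gene most often used as a readout of ALK1 signalling in endothelium. The PBS libraries stood at 961, 934 and 921 CPM. In PTZ, library 1 was at 642 CPM, library 2 at 168 CPM and library 4 at 1889 CPM. PTZ libraries 1 and 2 lay below all PBS libraries and library 4 above them, and the highest PTZ library was 11.3 times the lowest. The coefficient of variation was 2.20% in PBS, lower than in all but 1.66% of the 2106 genes with a mean of at least 100 CPM, and 98.9% in PTZ, higher than in 99.6% of them. The medians of these genes were 15.7% and 20.7%. The log2 fold change of the means, -0.062 (SE 0.63), therefore describes no single PTZ library: it was -1.22 without PTZ replicate 4, 0.40 without PTZ replicate 2, 0.13 without PTZ replicate 1, 0.021 with total counts and -0.72 in limma-voom.

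Id4 (ENSMUSG00000021379, protein coding, chromosome 13, 48261228 to 48266026, plus strand), known from astrocytes and neural stem cells, did not pass the filter. It had 9, 9 and 4 reads in the PBS libraries and 3, 5 and 11 in the PTZ libraries, 0.220 to 0.888 CPM. At this depth a difference between the groups was not detectable. Its exons share 82 and 171 bases with A330033J07Rik and Gm49291 on the other strand, and the labels give no strand setting for the counting.

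Per kilobase of exon, a rough scale for comparing levels of different genes, Id3 and Id1 made up nearly all of the Id family. The length counts all annotated exons of a gene, whichever transcripts the cells make, and read coverage along transcripts was not examined. In PBS the family summed to 2381, 2640 and 2678 CPM per kb in libraries 1, 2 and 4, of which Id3 gave 62.8%, 66.1% and 66.7% and Id1 34.8%, 30.5% and 29.6%. In PTZ the sums were 1161, 1179 and 2607 CPM per kb. PTZ libraries 1 and 2 lay below all PBS libraries, and library 4 lay within their range. Its sum was made up differently, with Id1 at 62.5% and Id3 at 36.1%, whereas PTZ library 2 had Id1 at 12.3% and Id3 at 81.6%. PTZ library 1 had 47.6% Id1 and 50.0% Id3. Id2 ranged from 1.43% to 6.09% over all libraries and Id4 stayed at or under 0.0109%.

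**Figure D3:**
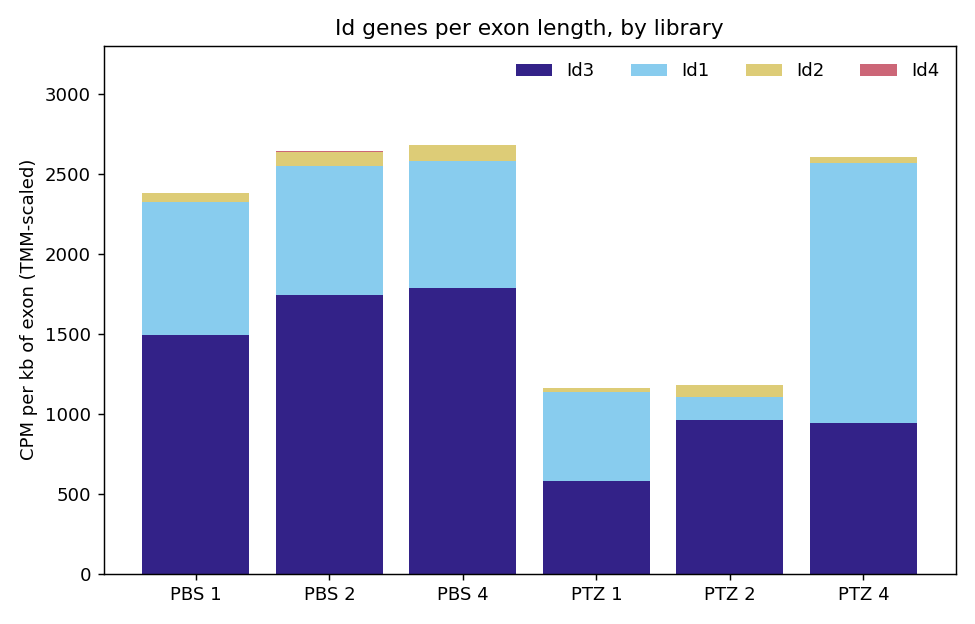
Stacked levels of the Id genes in CPM per kb of exon (vertical axis, from 0) in each of the 6 libraries. Id3 is shorter in all 3 PTZ bars, and Id1 fills most of the bar of PTZ library 4 (62.5%) and little of that of library 2 (12.3%).

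The genes with profiles nearest to Id1 and to Id3 were sought among 9722 genes with a mean of at least 5 CPM, by the root mean square difference in centred log2 CPM over the 6 libraries. Nearest to Id1 were Nol9 (0.23), Adamtsl2 (0.24), Cdc42ep5 (0.26) and Hist1h2bc (0.32). Cdc42ep5, whose protein binds the GTPase Cdc42, had levels of 32.4, 37.3 and 31.8 CPM in PBS and 20.1, 3.57 and 55.3 CPM in PTZ. It was also lowest in PTZ library 2 and highest in PTZ library 4, as its choice by likeness to Id1 favours. Nearest to Id3 were Yipf2 (0.12), Syk (0.14), Hs3st1 (0.16) and Hint3 (0.17). Hs3st1, a heparan sulfate sulfotransferase, stood at 162, 212 and 190 CPM and at 64.7, 80.5 and 96.6 CPM. Syk encodes a tyrosine kinase of immune receptors, and stood at 18.05, 24.0 and 19.0 CPM and at 7.76, 13.5 and 12.5 CPM. All 4 neighbours of Id3 had every PTZ library below every PBS library, as Id3 had, which the choice by likeness favours.

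Smad6 (ENSMUSG00000036867, protein coding, chromosome 9, 63953076 to 64022059, minus strand) encodes an inhibitory Smad that acts mainly on BMP signals. It stood at 5.12, 8.19 and 4.99 CPM in PBS and at 7.69, 6.75 and 16.1 CPM in PTZ. The groups overlapped, and PTZ library 4 was the highest, as it was for Id1. The log2 fold change of 0.75 (SE 0.51) was 0.24 without PTZ replicate 4. Smad7 (ENSMUSG00000025880, protein coding, chromosome 18, 75367529 to 75395935, plus strand) inhibits both BMP and TGF-beta signals. It stood at 7.37, 6.52 and 9.14 CPM in PBS and at 5.78, 4.47 and 10.7 CPM in PTZ, a log2 fold change of -0.13 (SE 0.51) that was 0.067 without PTZ replicate 2 and -0.59 without PTZ replicate 4. PTZ library 4 was again the highest and PTZ library 2 the lowest of all 6. These values rest on 66 to 258 reads for Smad6 and 45 to 171 for Smad7, far fewer than the 1688 to 30186 reads of Id1.

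Bmp6 (ENSMUSG00000039004, protein coding, chromosome 13, 38345107 to 38500302, plus strand) encodes a BMP that liver endothelium secretes to control iron. In PBS it stood at 6.25, 6.52 and 8.01 CPM. PTZ libraries 1 and 4 were at 15.4 and 20.0 CPM, above all PBS libraries, and PTZ library 2 was at 4.27 CPM, below them. The log2 fold change of 0.94 (SE 0.55) was 1.32 without PTZ replicate 2 and 0.51 without PTZ replicate 4. Pericyte, smooth muscle and fibroblast markers were likewise highest in PTZ libraries 1 and 4, with the sums given above, and their part in the Bmp6 values was not tested. Bmp6 shares 224 of its 3900 exon bases with Txndc5 on the other strand.

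The means of the receptor genes differed by less than the spread of the libraries. Acvrl1 (ENSMUSG00000000530, protein coding, chromosome 15, 101128522 to 101145336, plus strand), the ALK1 gene, stood at 727, 1140 and 672 CPM in PBS and 696, 1259 and 683 CPM in PTZ, with library 2 the highest of each group. Its log2 fold change was 0.055 (SE 0.33) and ran from -0.34, without PTZ replicate 2, to 0.30, without PBS replicate 2. The summed endothelial markers were also highest in library 2 of each group, as were Cldn5, Flt1 and Ly6c1 singly. Kdr, Tek and Slco1a4 were instead highest in library 4 of each group. Pecam1 and Cdh5 were highest in library 2 in PBS and in library 4 in PTZ. As a share of that sum Acvrl1 lay between 6.86% and 8.71% in all 6 libraries, with means of 7.92% ± 0.870 in PBS and 7.69% ± 0.744 in PTZ.

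Eng (ENSMUSG00000026814, protein coding, chromosome 2, 32646595 to 32682669, plus strand), the endoglin gene, stood at 495, 952 and 484 CPM in PBS and at 543, 568 and 837 CPM in PTZ. The highest library was 2 in PBS and 4 in PTZ, and the groups overlapped fully, with a log2 fold change of 0.014 (SE 0.33) that ran from -0.21, without PTZ replicate 4, to 0.38, without PBS replicate 2. Bmpr2 (ENSMUSG00000067336, protein coding, chromosome 1, 59763400 to 59879014, plus strand), the type II receptor mutated in heritable pulmonary arterial hypertension, had the smallest coefficient of variation of the 6 members ranked in PTZ, 11.8%. It stood at 251, 218 and 224 CPM in PBS and 278, 219 and 246 CPM in PTZ, a log2 fold change of 0.10 (SE 0.21). It was 0.014 without PTZ replicate 1, 0.028 without PBS replicate 2, 0.050 without PBS replicate 4 and 0.17 without PBS replicate 1. Eng shares 61 of 4048 exon bases with Fpgs, and Acvrl1 127 of 4265 with Gm16031, each on the other strand.

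**Figure D4:**
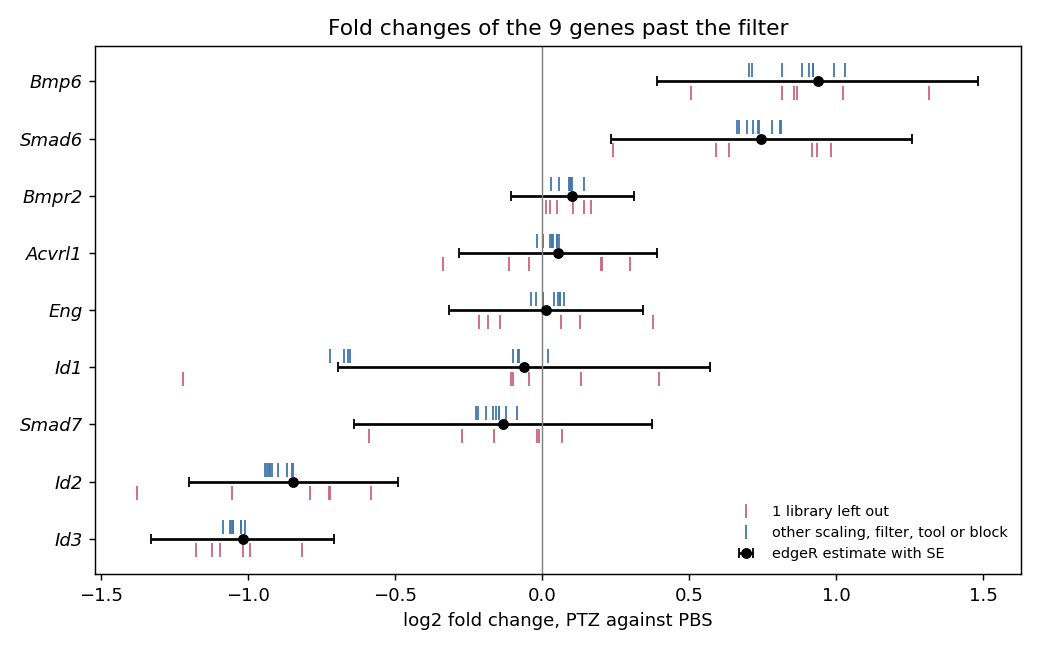
Log2 fold change of PTZ against PBS (horizontal axis) for the 9 genes past the filter. Black points are edgeR's estimates with their SE, red ticks leave out 1 library each and blue ticks use another scaling, filter, tool or block. Id2 and Id3 stay below 0 and Bmp6, Smad6 and Bmpr2 above 0 under all of them, while Id1, Smad7, Acvrl1 and Eng cross 0.

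The members were then ordered by mean level per kilobase of exon over the 6 libraries. Id3 (1252 CPM per kb) and Id1 (792) came first, the 32nd and 70th of 13762 genes ranked, and Acvrl1 (202), Eng (160) and Id2 (63.5) followed. The libraries of Acvrl1 and Eng overlapped. Bmpr2 stood at 13.3 CPM per kb, and Bmp6 (2.58), Smad6 (2.54) and Smad7 (1.62) came next, with overlapping libraries. Id4 was last at 0.137 CPM per kb. The order of Id3 and Id1 was reversed in PTZ library 4, with 941 and 1629 CPM per kb.

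Of the wider pathway, 97 of 98 genes listed by role matched the files and 74 passed the filter. Of these 74 genes 59 had a positive log2 fold change (52.7% of all genes tested), with a median of 0.30 against 0.034 for all genes. In edgeR 0 passed an adjusted p of 0.05 (0% of all genes). At an unadjusted p under 0.05 stood 11 higher and 2 lower, beside 3.83% and 3.38% of all genes, and the groups did not overlap for 19 higher and 3 lower, beside 7.3% and 7.04%. DESeq2 and limma-voom called 0 of them as well. DESeq2 with the replicate block called 3, beside 1.5% of all genes. In edgeR without the filter 2 were called, beside 77 higher and 44 lower among 34777 genes. Nbl1 and Gja4 were called by both of these fits and Htra1 by the first.

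Of 19 listed ligands other than Bmp6, 8 passed the filter. Transcripts of Gdf2 and Bmp10, which encode the circulating ligands with the highest affinity for ALK1 and are made in liver and heart, had 0 to 2 and 0 to 1 reads per library. Bmp4 stood at 9.68, 17.0 and 21.9 CPM in PBS and 15.8, 10.1 and 14.3 CPM in PTZ. Of the 8 tested ligands 7 had a positive log2 fold change. Tgfb3 stood at 0.812, 1.78 and 2.87 CPM in PBS and 16.3, 3.87 and 8.14 CPM in PTZ (log2 fold change 2.38, SE 0.73, adjusted p = 0.619 in edgeR), all PTZ libraries above all PBS libraries and PTZ library 1 the highest. Of all genes 7.3% were higher without overlap, and Tgfb3 was picked by the smallest unadjusted p of its list. Bmp7 had the order of Bmp6, at 7.99, 10.5 and 12.8 CPM and at 23.1, 3.47 and 33.9 CPM, with a log2 fold change of 0.96 (SE 0.64) that was 0.35 without PTZ replicate 4. The summed pericyte, smooth muscle and fibroblast markers were likewise highest in PTZ libraries 1 and 4, and their part in the values of Tgfb3 and Bmp7 was not tested. Tgfb2 had the highest CPM of the listed ligands, 43.2 to 67.9 over all libraries, with a log2 fold change of 0.23 (SE 0.23). Gdf11 was at 0.998 (SE 1.16). Both overlapped between the groups. Tgfb2 ran from 0.11, without PBS replicate 2 or PTZ replicate 4, to 0.38, without PBS replicate 1. Gdf11 was 0.39 without PBS replicate 2, 0.63 without PTZ replicate 1 and 2.03 without PBS replicate 4.

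Of 9 tested receptor genes 7 had a positive and 2 a negative log2 fold change (Rgmb and Tgfbr1, the latter named after its value was seen), and 0 were at an unadjusted p under 0.05. Acvr1, another type I receptor for BMPs, stood at 23.7, 29.9 and 26.3 CPM in PBS and at 40.1, 29.1 and 41.1 CPM in PTZ (0.47, SE 0.25), and the TGF-beta co-receptor gene Tgfbr3 had a log2 fold change of 0.53 (SE 0.26), which was 0.32 without PTZ replicate 4. Acvr2b was at 0.46 (SE 0.35). Rgmb, a BMP co-receptor gene, was at -0.66 (SE 0.51), with every PTZ library below every PBS library, beside 7.04% of all genes. Acvr2b was at 0.28 without PBS replicate 1 or PTZ replicate 1 and at 0.78 without PBS replicate 2. All 6 signal-carrying Smads were positive, but Smad4 (0.012, SE 0.21) and Smad5 (0.060, SE 0.22) lay well within their SE. Both were named after their values were seen. Smad1 stood at 73.1, 72.2 and 63.6 CPM in PBS and at 85.3, 111 and 115 CPM in PTZ, with every PTZ library above every PBS library (0.57, SE 0.21, adjusted p = 0.648 in edgeR). Of all genes 7.3% were higher without overlap. Rgmb and Smad1 were picked among the smallest unadjusted p of their lists, which favours such a separation. Smad9 (0.56, SE 0.84), Smad3 (0.30, SE 0.30) and Smad2 (0.17, SE 0.35) overlapped between the groups. Smad3 was at -0.040 without PTZ replicate 1, and Smad2 at -0.026 without PBS replicate 4 and 0.43 without PBS replicate 1. Smad9 ran from 0.15, without PBS replicate 2, to 1.02, without PBS replicate 4.

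Of 14 tested extracellular antagonists and modulators 10 had a positive log2 fold change, and 6 higher and 1 lower were at an unadjusted p under 0.05, beside 3.83% and 3.38% of all genes. Whether the lists differ from each other was not tested. Nbl1, a secreted BMP antagonist, stood at 15.2, 14.2 and 32.0 CPM in PBS and 57.8, 38.0 and 60.0 CPM in PTZ (1.34, SE 0.35, adjusted p = 0.522 in edgeR). Kcp, a secreted modulator with cysteine-rich repeats, stood at 3.19, 8.10 and 4.84 CPM and at 16.6, 13.9 and 14.8 CPM (1.496, SE 0.45). Htra1, a secreted protease, stood at 34.0, 71.9 and 73.6 CPM and at 109, 94.5 and 169 CPM (1.05, SE 0.33). Crim1, which binds BMPs at the cell surface, stood at 76.7, 98.5 and 64.5 CPM and at 124, 127 and 125 CPM (0.65, SE 0.22). For all 4 the groups did not overlap, beside 7.3% of all genes higher without overlap. Being picked by the smallest unadjusted p of their list favours this. In PTZ all but Crim1 were lowest in library 2, as were the pericyte and smooth muscle markers, whose part in these values was not tested. The gene lower in PTZ was Fstl3, an activin antagonist (3.06, 2.86 and 2.04 CPM against 0.512, 0.199 and 0.688 CPM), named after its values were seen. It rests on few reads, 49, 29 and 27 in PBS and 7, 2 and 11 in PTZ.

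Among intracellular regulators 15 of 17 tested genes were positive. Skil, which encodes the Smad co-repressor SnoN, stood at 18.9, 29.8 and 24.1 CPM in PBS and 72.0, 39.0 and 49.4 CPM in PTZ (1.14, SE 0.30, adjusted p = 0.516 in edgeR). Tob2, an anti-proliferative relative of the Smad-binding Tob1, stood at 42.2, 42.5 and 28.0 CPM and at 56.1, 60.0 and 85.9 CPM (0.84, SE 0.27). Tgif1, a homeodomain co-repressor of Smads, was the 1 gene of the list lower at an unadjusted p under 0.05, at 14.3, 23.7 and 31.7 CPM and at 14.2, 10.9 and 8.76 CPM (-1.04, SE 0.38). Ppm1a, a phosphatase of Smads, was at 0.45 (SE 0.21). None of the 4 overlapped between the groups, beside 14.3% of all genes without overlap in either direction. These 4 were picked by the smallest unadjusted p of their list, which favours such a separation.

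Genes reported as BMP targets in endothelium other than the Id and Smad genes were not all on 1 side. Of 12 tested 7 were positive and 5 negative, and their median was 0.21. Gja4, which encodes an arterial gap junction protein, was at 72.9, 195 and 258 CPM in PBS and at 274, 512 and 326 CPM in PTZ (1.08, SE 0.42), with every PTZ library above every PBS library. It was 0.71 without PBS replicate 1, where its unadjusted p in edgeR was 0.069. Hey1, a transcriptional repressor shared with Notch signalling, stood at 50.2, 53.7 and 43.5 CPM and at 72.4, 56.4 and 65.5 CPM (0.40, SE 0.22), also without overlap. Edn1, the endothelin-1 gene, was at 0.46 (SE 0.23) and Msx1 at 0.61 (SE 0.32), both without overlap, and these were 0.23 without PTZ replicate 2 and 0.37 without PBS replicate 4. Tmem100 and Atoh8, which depend on ALK1 in endothelium, had log2 fold changes of -0.30 (SE 0.31) and -0.082 (SE 0.42). These 2 were named after their values were seen. Gja4, Hey1, Edn1 and Msx1 were picked by the smallest unadjusted p of their list, which favours groups without overlap (7.3% of all genes higher).

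The list of bHLH partners of Id proteins holds 6 bHLH genes and the genes of their cofactors Lmo2 and Ldb1, which are not bHLH proteins. Of these 8 genes 7 were positive, their median was 0.23, and 0 were at an unadjusted p under 0.05. The E protein gene Tcf4 was the most abundant in CPM, at 312, 371 and 427 CPM in PBS and 440, 469 and 446 CPM in PTZ (0.29, SE 0.23), with no overlap, and 0.18 without PBS replicate 1. Tcf4 was picked among the smallest unadjusted p of its list, and 7.3% of all genes were higher without overlap. The other E protein genes Tcf3 (0.49, SE 0.35) and Tcf12 (0.20, SE 0.22) and the bridging factor gene Lmo2 (0.27, SE 0.21) had overlapping libraries. With 1 library left out Tcf3 was 0.18 (PTZ replicate 4) to 0.75 (PTZ replicate 2), Tcf12 0.054 (PBS replicate 2) to 0.37 (PBS replicate 1), and Lmo2 as low as 0.15 (PTZ replicate 4).

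**Figure D5:**
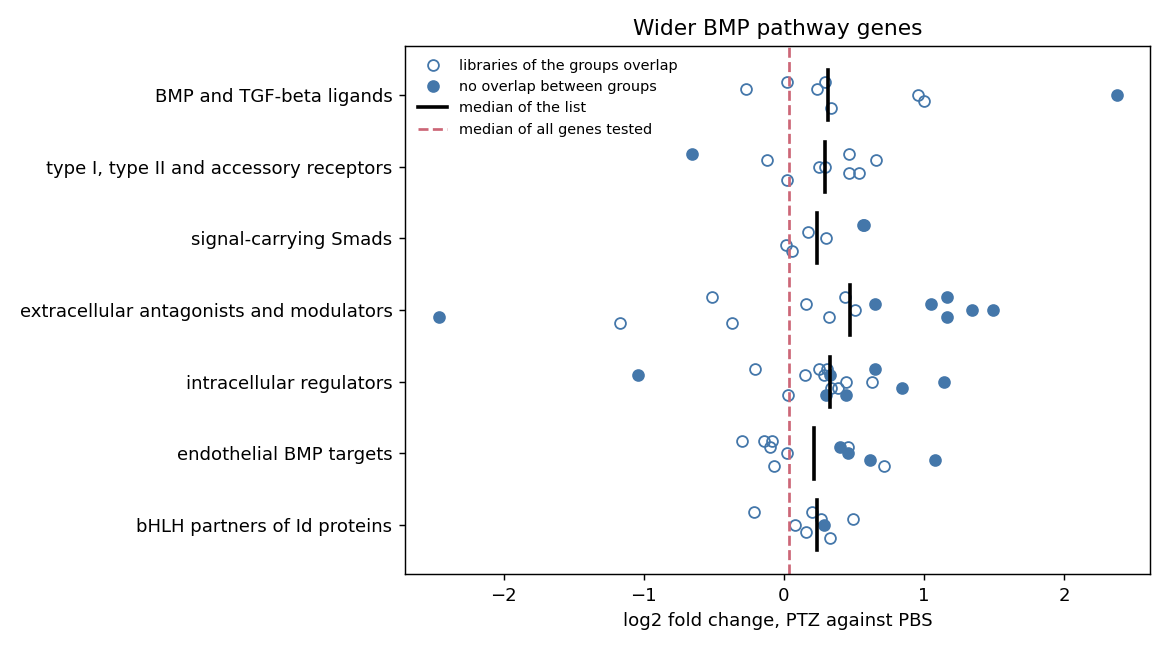
Log2 fold change of PTZ against PBS (horizontal axis) for the 74 tested genes of the wider pathway, grouped by role. Filled points have no overlap between the groups, black bars are list medians (0.21 to 0.47) and the dashed line is the median of all genes tested (0.034).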

How the data were processed

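RNA of brain endothelial cells was measured in 3 PBS and 3 PTZ libraries, made with a low-input kit per the labels' protocols. The authors deposited raw read counts per Ensembl gene. Per the submitters' processing notes the build was GRCm38, and the tools were edgeR, HTSeq, TopHat2 2.1.1 and CASAVA. No annotation release or strand setting was found in the labels. The 5 summary rows that name no gene, 16.1% to 22.9% of reads, were left out. A second deposited file per library holds a signal scaled by the authors, which is the count divided by 1 factor per library (100% of values matched within 0.01 reads), and it served as another scaling.

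The software was DESeq2 1.42.0, limma 3.58.1 and edgeR 4.0.16 in R 4.3.3. Low counts were filtered by filterByExpr with a minimum of 10 and a total of 15. TMM factors ranged from 0.864 to 1.14. The main fit was edgeR's 2-sided quasi-likelihood test on the group alone, with Benjamini-Hochberg adjustment over all 13768 genes and a threshold of 0.05. The biological coefficient of variation was 0.470. SE values come from the fold change and its statistic. Coordinates, exon lengths and overlaps come from GENCODE M21 (GRCm38), promoters from RefSeq (GRCm38.p6), where windows of 250 bases were searched. Profiles were compared on log2 CPM with a prior count of 2.

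Members, lists and tests were chosen with earlier results of these data known. Named pathway genes are up to 4 per list with the smallest unadjusted p, a choice that favours genes whose groups do not overlap. For Id1 and Id3 the 4 nearest genes are named, leaving out predicted genes.

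Libraries of a group differed beyond sampling noise (chi-square per degree of freedom 43.8 to 99.1). Deviations from group means correlated at 0.167, 0.197 and 0.217 between libraries of equal number, each over 0.1, and by this measure equal numbers paired the libraries. The alternatives were 3 other scalings, no filter, DESeq2, limma-voom, the replicate block and leaving out each library, with 2 blocked fits added after seeing the data.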

Additional observations from a re-analysis of the deposited data

How the results depend on the processing

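The negative values of Id2 and Id3 and the positive ones of Smad6, Bmpr2 and Bmp6 kept their direction in all 15 alternatives, and the other 4 tested members did not. With 1 library left out Id1 ran from -1.22 to 0.40 and was 0.13 without PTZ replicate 1, Smad7 from -0.59 to 0.067, Acvrl1 from -0.34 to 0.30, Eng from -0.21 to 0.38, Smad3 from -0.040 to 0.46 and Smad2 from -0.026 to 0.43. Acvrl1 was -0.045 and -0.11, and Eng -0.14 and -0.18, without PBS replicate 1 and PBS replicate 4. With total counts Id1 was 0.021, with the authors' scaling Acvrl1 was -0.018 and Eng -0.038, and with no filter Eng was -0.021. The cause was not tested.

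Positive members, 5, were 3 with the authors' scaling and 3 to 6 with 1 library left out. Over all genes, 0 higher and 0 lower calls became 77 and 44 when no filter was applied. DESeq2 gave 53 and 23 and limma-voom 1 and 0. Leaving out 1 library gave 0 to 8 higher, with 8 for PBS replicate 2. With the replicate block edgeR called 0 and 0, DESeq2 130 and 77 and limma-voom 11 and 2, the last 2 fits added after seeing the data. DESeq2 called 1 member (Id3, adjusted p = 0.0237), and with the replicate block 2 (Id2, adjusted p = 0.0164, and Id3, adjusted p = 1.2e-05). Without PBS replicate 4 in edgeR the adjusted p of both was 0.9998, the highest over the alternatives. Pathway calls were 2 when no filter was applied and 3 in DESeq2 with the replicate block. At an unadjusted p, 11 higher and 2 lower became 19 higher in limma-voom with the replicate block and 1 to 2 lower with 1 library left out, and edgeR with the replicate block gave 16 and 3. Counts of 3 to 11 reads limit Id4.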
